A study of Mus musculus with 9 samples.

Results

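The tumour necrosis factor (TNF) superfamily was examined in mouse bladder RNA. Its members were the table rows whose symbol is *Tnfsf* or *Tnfrsf* with a number and at most 1 letter, together with *Tnf*, *Lta*, *Ltb*, *Ltbr*, *Cd40*, *Cd40lg*, *Cd27*, *Cd70*, *Fas*, *Fasl* and *Edar*. This rule found 42 of 53342 genes, 17 ligands and 25 receptors. *Ngfrap1*, the remaining one of 12 names in the rule, had no row under that symbol, and its present name *Bex3* is given further on with related genes. The 9 libraries came from bladders of C57BL/6N mice, 3 in each of 3 groups. H2O2/SB431542 mice received 1.5% H2O2 (hydrogen peroxide, an irritant) into the bladder and intraperitoneal SB431542, an inhibitor of the TGF-β type I receptor kinase, at 1.2 mM. H2O2/saline mice received the same H2O2 infusion and intraperitoneal saline. Controls are labelled untreated in the record, whereas the study's methods describe saline infused into their bladders. All mice were female and aged 8 weeks at infusion, and bladders were taken on day 10, as given in the study's methods and records. In the H2O2/saline and H2O2/SB431542 groups, the intraperitoneal injections were repeated on day 4. All groups were wild-type, with no transgene or deletion. The design calls the libraries biological replicates, but no source states that each is a separate mouse, so p-values measure only the spread between these samples. The comparisons ask which members differ after H2O2 infusion and which differ when the inhibitor is added.

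TNF superfamily ligands are mostly membrane proteins that assemble as trimers and can be shed by proteases, and they bind receptors on neighbouring cells. Receptors with a death domain can recruit adaptors and caspases and trigger cell death, while most others bind TRAF adaptors and activate NF-κB, the transcription factor behind many inflammatory genes. Decoy receptors bind ligand without passing on a signal. In the bladder, TNF is known as a cytokine of cystitis, made largely by macrophages and mast cells.

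Libraries held 37329213 to 41055328 counts, and levels are given as CPM, counts scaled to 1000000 per library after its total was adjusted by a trimmed mean factor. Receptors made up most of the family's RNA, with summed levels of 759 to 870 CPM in H2O2/SB431542, 762 to 1081 CPM in H2O2/saline and 551 to 825 CPM in control libraries. Ligands summed to 43.5 to 50.2 CPM in H2O2/SB431542, 58.0 to 69.4 CPM in H2O2/saline and 42.03 to 70.5 CPM in control libraries. Summed uroplakin and *Krt20* levels, markers of superficial urothelium, reached 6707 to 20140 CPM over all libraries, and markers of the bladder lining were thus present in every library. The library H2O2/saline 1 stood apart from H2O2/saline 2 and 3. It was the lowest of its group in 20 of 30 tested members. H2O2/SB431542 1 was the lowest of its group in 14 of 30. The replicate 1 libraries of the 3 groups also resembled each other. Their log2 counts correlated at r = 0.9803 to 0.9815, against at most 0.9755 for any other pair. They held 26475 to 28154 genes with a count, against 21810 to 24524 in the other libraries. H2O2/saline 1 was picked out by the members' values, so leaving it out is no independent test. Adjusted p-values without it are given for the named genes that passed when it was left out. Of 42 members, 30 passed the filter on low counts, which asked for about 10 counts in at least 3 libraries (0.254 CPM). These were 8 ligands and 22 receptors.

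Compared per kilobase of exon, levels spanned several orders of magnitude, as the plot of levels by group shows. Receptors led the list. *Ltbr*, the lymphotoxin β receptor, averaged 103 CPM per kb in H2O2/SB431542, 104 in H2O2/saline and 93.2 in control bladders. *Tnfrsf1a*, the main TNF receptor (TNFR1), which carries a death domain, averaged 84.1 CPM per kb in H2O2/SB431542, 104 in H2O2/saline and 72.3 in control bladders. The 2 overlapped in H2O2/saline and in control libraries, while in H2O2/SB431542 libraries *Ltbr* was the higher one. Then came *Tnfrsf21* (death receptor 6) and *Tnfrsf12a* (Fn14), at 41.2 and 37.2 CPM per kb over all 9 libraries. The only ligand near them was *Tnfsf12* (TWEAK), which binds Fn14, at 26.5 CPM per kb. *Tnfrsf1b* (TNFR2) was at 9.62 CPM per kb, and no other ligand exceeded 3.09 CPM per kb, the level of *Tnfsf13* (APRIL). *Tnf* itself was at 0.133 CPM per kb, far below both of its receptors.

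**Figure D1:**
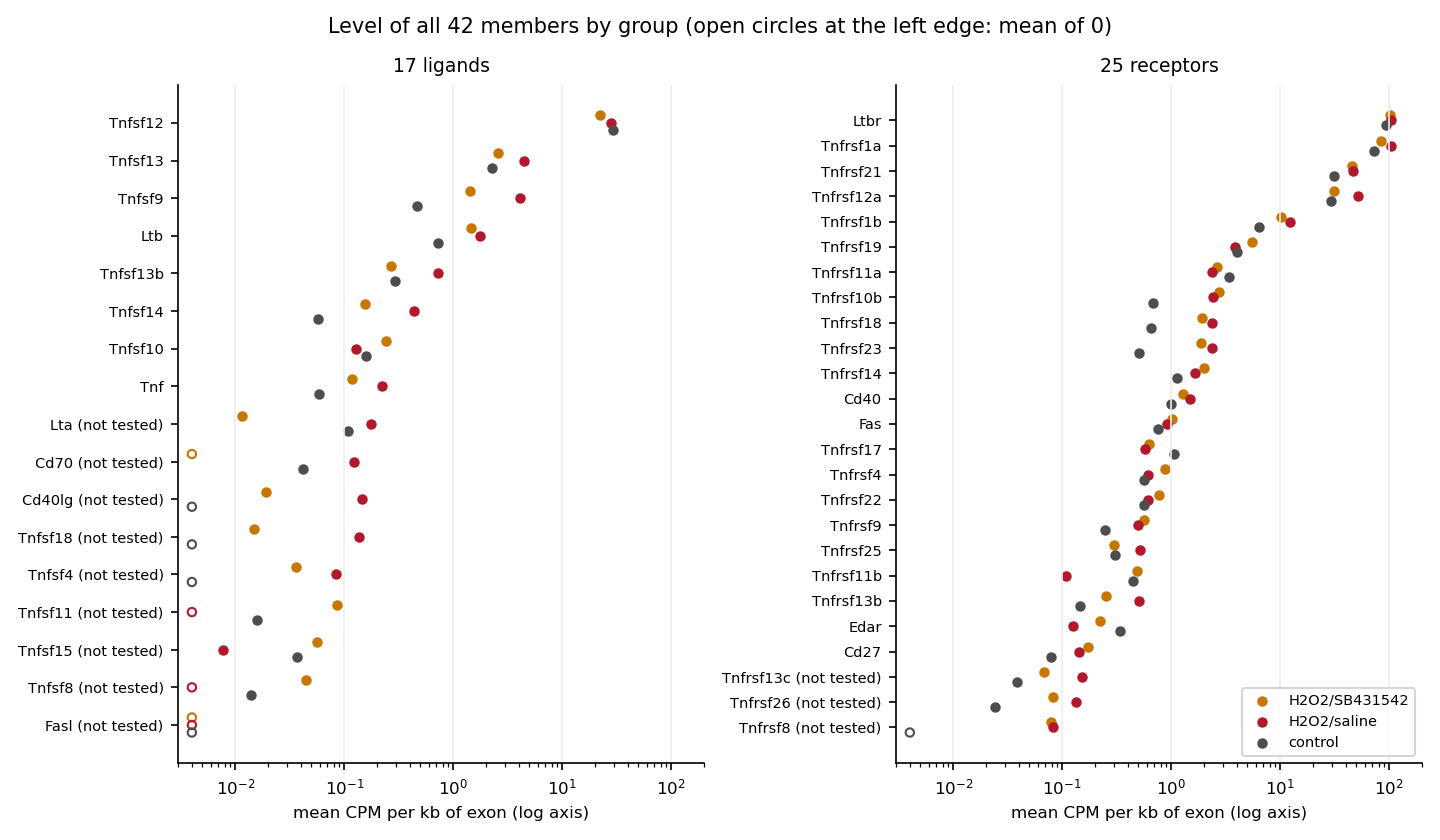
Mean level of all 42 members in each group, in CPM per kb of exon on a log axis, with ligands on the left and receptors on the right. Filled circles are group means (n = 3 libraries) and open circles at the left edge are means of 0. Ltbr and Tnfrsf1a stand highest among receptors, Tnfsf12 among ligands, and Fasl had no count in any group.

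The first comparison set H2O2/saline against control bladders. By edgeR's quasi-likelihood test, 0 of 30 tested members passed an adjusted p of 0.05, where 0.0518% of all 19314 tested genes passed. At an unadjusted p under 0.05 there were 11 members, 10 higher and 1 lower, or 36.7% of those tested against a background of 17.8%. DESeq2 called 8 members (background 7.33%), which were *Tnfrsf10b*, *Tnfrsf11b*, *Tnfrsf18*, *Tnfrsf1b*, *Tnfrsf21*, *Tnfrsf23*, *Tnfsf13* and *Tnfsf9*. With the replicate number as a block, edgeR called 4 members, all higher: *Tnfrsf10b*, *Tnfrsf1b*, *Tnfrsf23* and *Tnfsf9* (background 4.79%). Without H2O2/saline 1 it called 6, these and *Tnfrsf18* and *Tnfsf13* (background 9.43%). Leaving out any other single library it called 0, where 0 to 252 of all 19314 tested genes passed. All 3 H2O2/saline libraries lay above all 3 controls for 8 members (background 9.7%) and below them for 1 (background 8.96%). Over the tested members the median log2 fold change was 0.66 and 23 were positive, while over all tested genes the median was -0.02 and 48.6% were positive. The 2 groups thus overlapped for most tested members.

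**Figure D2:**
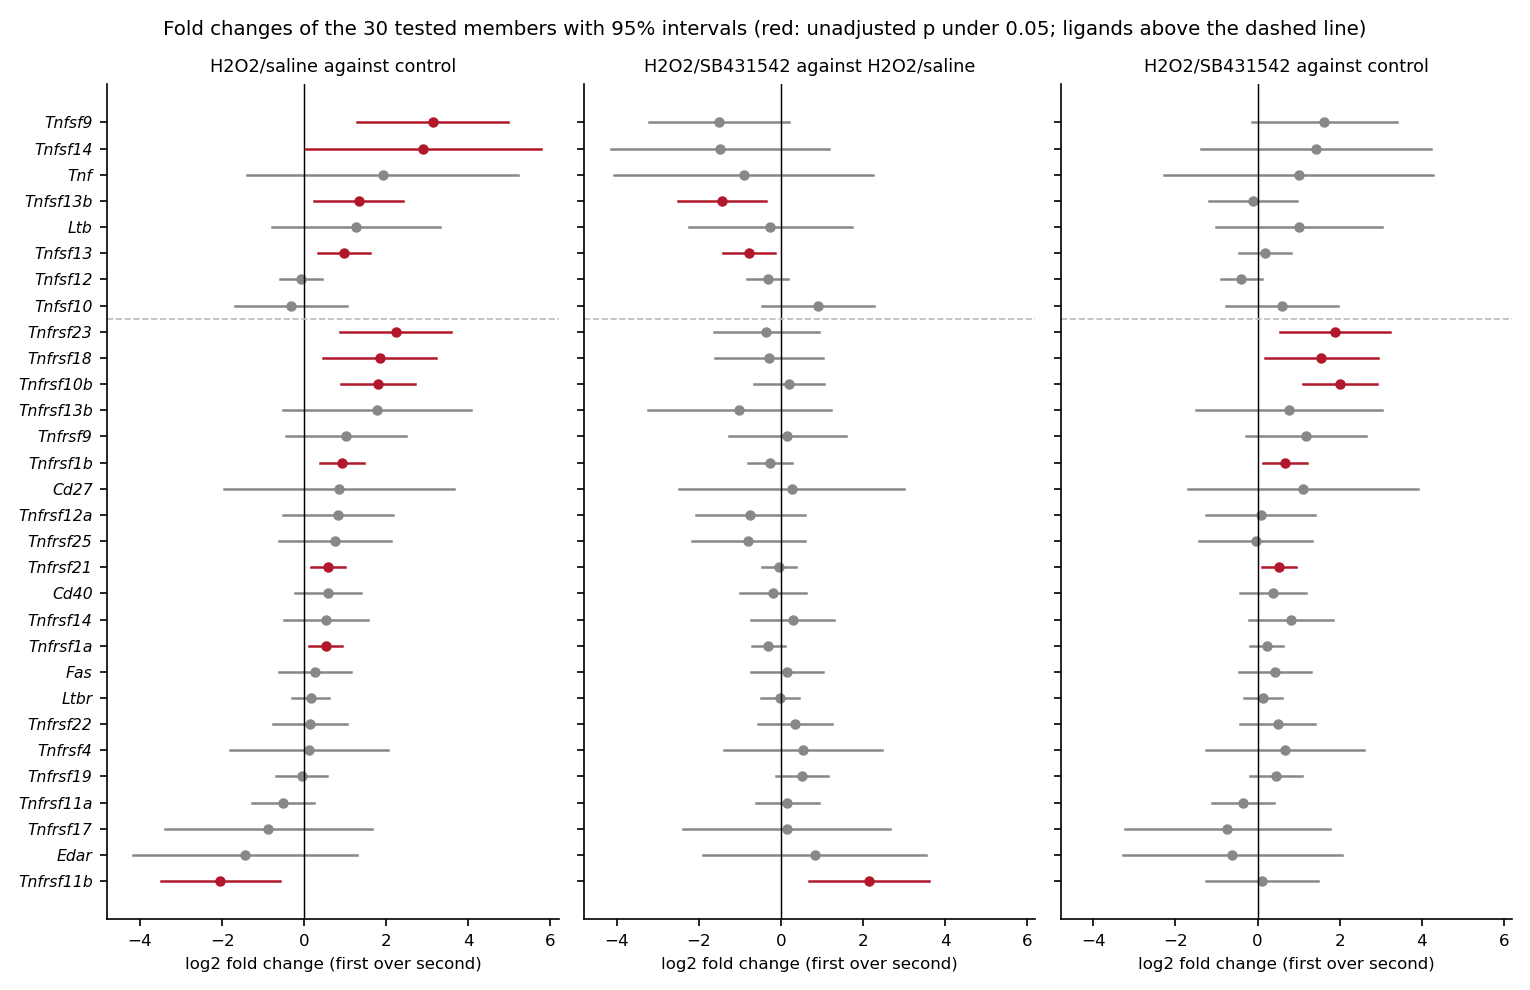
Log2 fold change (points) and 95% interval (lines) of the 30 tested members in each of the 3 comparisons, first group over second, with ligands above the dashed line. Red marks an unadjusted p under 0.05, which 11, 3 and 5 members reached in H2O2/saline against control, H2O2/SB431542 against H2O2/saline and H2O2/SB431542 against control, and none passed after adjustment.

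Among ligands, *Tnfsf9* (4-1BB ligand, a costimulator of T cells made by antigen-presenting cells) had the largest fitted difference. It was at 0.780, 9.94 and 4.98 CPM in H2O2/saline libraries, against 0.582, 0.924 and 0.284 CPM in controls. H2O2/saline 2 and 3 lay well above every control, but H2O2/saline 1 lay within the control range. The log2 fold change was 3.13 ± 0.84 (SE, n = 3 each), with an edgeR adjusted p of 0.0913, or 0.0422 with the replicate block and 0.00462 without H2O2/saline 1. Without H2O2/saline 2, the highest library, the log2 fold change was 2.27, with an edgeR adjusted p of 0.347. Its receptor *Tnfrsf9* (4-1BB) averaged 1.36 ± 0.72 CPM in H2O2/saline and 0.672 ± 0.462 CPM in control bladders (SD, n = 3 each), and the groups overlapped.

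*Tnfsf13* (APRIL) and *Tnfsf13b* (BAFF) are related ligands that sustain B cells and plasma cells and share the receptors *Tnfrsf13b* (TACI) and *Tnfrsf17* (BCMA). *Tnfsf13* was at 5.43, 9.496 and 6.84 CPM in H2O2/saline, against 3.44, 3.91 and 3.79 CPM in control libraries. All H2O2/saline libraries were above all controls. The log2 fold change was 0.97 ± 0.29 (SE), with an edgeR adjusted p of 0.119, 0.0717 with the block and 0.0426 without H2O2/saline 1. That p was 0.405 without H2O2/saline 2 and 0.283 without control 3. *Tnfsf13b* was at 3.01, 4.63 and 7.38 CPM in H2O2/saline and at 2.06, 1.03 and 2.89 CPM in control libraries. These also did not overlap, but the highest control and the lowest H2O2/saline library were close together. Its log2 fold change was 1.33 ± 0.49 (SE, edgeR adjusted p = 0.189). Of their receptors, *Tnfrsf13b* averaged 1.44 ± 1.003 CPM in H2O2/saline and 0.416 ± 0.310 CPM in control bladders (SD, n = 3 each). *Tnfrsf17* averaged 0.471 ± 0.651 CPM in H2O2/saline and 0.860 ± 0.396 CPM in control bladders, and both receptors overlapped between groups.

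*Tnfsf14* (LIGHT), which binds *Ltbr* and *Tnfrsf14* (HVEM), was the third ligand with no overlap. It was at 0.520, 0.517 and 1.39 CPM in H2O2/saline libraries, against 0.317, 0 and 0 CPM in controls, where 3 counts correspond to 0.0773 to 0.0793 CPM. Its edgeR adjusted p was 0.274. The filter let it through with 3 H2O2/saline libraries and 1 control library at the required level. *Tnfrsf14* averaged 2.35 ± 0.63 CPM in H2O2/saline and 1.62 ± 0.58 CPM in control bladders (SD, n = 3 each), with overlap.

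*Tnf*, the founding cytokine of the family, was barely detected. It was at 0.0867, 0.517 and 0.495 CPM in H2O2/saline and at 0.0793, 0 and 0.206 CPM in control libraries. Its 9 libraries summed to 78 counts, and the log2 fold change of 1.91 ± 1.51 (SE) had an edgeR adjusted p of 0.569. At this depth a difference in *Tnf* was not detectable. *Ltb* (lymphotoxin β) was at 1.88, 2.64 and 3.42 CPM in H2O2/saline and at 1.24, 2.06 and 0 CPM in control libraries. Of the 2 other tested ligands, *Tnfsf10* (TRAIL, which can induce apoptosis) averaged 0.674 ± 0.112 CPM in H2O2/saline and 0.836 ± 0.420 CPM in control bladders. *Tnfsf12* averaged 42.2 ± 3.7 CPM in H2O2/saline and 44.6 ± 15.2 CPM in control bladders (SD, n = 3 each). Both lay within the spread of the controls.

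The promoters of these 3 non-overlapping ligands are shown because they are the ligands that separated H2O2/saline from control libraries and, as given further on, from H2O2/SB431542 libraries as well. *Tnfrsf1b*, a receptor, is shown beside them. Each is the 250 bases before a RefSeq start in build GRCm38.p6, while the deposited table uses GRCm39. Capitals mark matches, on either strand, to the AP-1 motif TGANTCA, to GGGCGG, to TATAAA, to TTCNNNGAA or to the NF-κB consensus. Windows are at chr11:69685555-69685804 (minus strand) for *Tnfsf13*, chr8:10006383-10006632 (plus strand, the downstream of 2 starts) for *Tnfsf13b*, chr17:57194182-57194431 (minus strand) for *Tnfsf14* and chr4:145246871-145247120 (minus strand) for *Tnfrsf1b*.
Tnfsf13: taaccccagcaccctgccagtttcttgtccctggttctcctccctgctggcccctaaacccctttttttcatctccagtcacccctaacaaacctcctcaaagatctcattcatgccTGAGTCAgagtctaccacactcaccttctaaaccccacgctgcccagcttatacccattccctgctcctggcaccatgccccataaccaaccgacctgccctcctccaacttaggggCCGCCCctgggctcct
Tnfsf13b: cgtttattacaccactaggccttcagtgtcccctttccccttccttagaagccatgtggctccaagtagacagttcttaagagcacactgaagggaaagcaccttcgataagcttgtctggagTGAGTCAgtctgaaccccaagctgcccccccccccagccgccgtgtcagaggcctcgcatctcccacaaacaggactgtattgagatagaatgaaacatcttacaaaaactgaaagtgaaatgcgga
Tnfsf14: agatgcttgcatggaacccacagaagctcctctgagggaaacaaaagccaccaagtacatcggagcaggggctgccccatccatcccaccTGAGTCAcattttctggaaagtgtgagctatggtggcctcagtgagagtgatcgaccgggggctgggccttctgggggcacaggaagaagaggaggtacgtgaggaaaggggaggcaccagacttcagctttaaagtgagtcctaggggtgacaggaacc
Tnfrsf1b: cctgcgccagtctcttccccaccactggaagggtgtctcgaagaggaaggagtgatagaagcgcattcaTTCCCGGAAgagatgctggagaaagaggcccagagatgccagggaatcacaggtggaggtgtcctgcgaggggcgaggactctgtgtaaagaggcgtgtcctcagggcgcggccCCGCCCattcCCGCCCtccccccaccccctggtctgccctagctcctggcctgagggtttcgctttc

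All 3 ligand windows shown held the AP-1 motif, beginning 133, 127 and 160 bases before the start in *Tnfsf13*, *Tnfsf13b* and *Tnfsf14*. Of the 32 members with a window in the table, 6 held it, the others being *Fas*, *Tnfrsf8* and *Tnfrsf9*, and 7.82% of 27025 genes with a window did. The *Tnfrsf1b* window held GGGCGG at 2 places, as did at least 1 window of 15 members and 35.4% of genes, and TTCNNNGAA at 1 place, as did 8 members and 8.13% of genes. *Tnfsf13* held GGGCGG once. The NF-κB consensus was in none of the 4 windows. Among members it was in *Ltb*, *Tnfrsf25*, *Tnfrsf8* and *Tnfrsf9*, and 8.23% of genes held it. TATAAA was in 6 members, *Tnf* and *Lta* among them, and in 14.3% of genes. These matches describe the letters only. The windows of *Tnfsf13*, *Tnfsf13b* and *Tnfsf14* were looked at after the values of these genes were known. The start shown for *Tnfsf13b* was chosen by hand, and whether the window of its other start holds the motif is not given. A motif shared by the windows shown is therefore no finding about these ligands.

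Among receptors, the lowest p belonged to *Tnfrsf10b* (DR5), the death-domain receptor for TRAIL in mice. It was at 9.28, 15.7 and 14.2 CPM in H2O2/saline libraries, against 2.88, 6.498 and 1.86 CPM in controls. Every H2O2/saline library was above every control, H2O2/saline 1 included. The log2 fold change was 1.80 ± 0.41 (SE, n = 3 each), with an edgeR adjusted p of 0.0679, 0.0208 with the block and 0.0118 without H2O2/saline 1. That p was 0.246 without H2O2/saline 2 and 0.251 without control 3. *Tnfrsf23*, a decoy receptor for TRAIL in mice, was at 2.46, 12.8 and 13.2 CPM in H2O2/saline and at 1.98, 2.51 and 1.55 CPM in control libraries. Here H2O2/saline 1 fell within the control range and the other two libraries lay far above it. The log2 fold change was 2.23 ± 0.62 (SE), with an edgeR adjusted p of 0.1002, 0.0440 with the block and 0.0047 without H2O2/saline 1. That p was 0.318 without H2O2/saline 2 and 0.313 without control 3. *Tnfrsf22*, a second decoy receptor for TRAIL, averaged 2.59 ± 1.096 CPM in H2O2/saline and 2.35 ± 0.25 CPM in control bladders (SD, n = 3 each). The transcripts of the 2 decoys share 26.6% of the 31-base words of *Tnfrsf23* and 25.5% of those of *Tnfrsf22*, so some of their reads could have been split between them.

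The 2 TNF receptors were both higher in every H2O2/saline library than in every control. *Tnfrsf1b* (TNFR2), expressed mostly by immune and endothelial cells, was at 33.8, 58.5 and 47.9 CPM in H2O2/saline, against 23.3, 31.04 and 19.3 CPM in control libraries. Its log2 fold change was 0.93 ± 0.25 (SE), with an edgeR adjusted p of 0.0885, 0.0234 with the block and 0.0138 without H2O2/saline 1. That p was 0.33 without H2O2/saline 2 and 0.283 without control 3. *Tnfrsf1a* was at 221, 312 and 273 CPM in H2O2/saline, against 182, 215 and 165 CPM in control libraries. The groups were separated only by the small gap between the lowest H2O2/saline and the highest control library. Its log2 fold change of 0.52 ± 0.19 (SE) had an edgeR adjusted p of 0.1795, and 0.0692 with the block. *Tnfrsf21*, a death-domain receptor without a ligand in the family, was at 168, 203 and 207 CPM in H2O2/saline, against 138, 127 and 123 CPM in control libraries. The groups were completely separated, with a small log2 fold change of 0.58 ± 0.19 (SE, edgeR adjusted p = 0.139).

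*Tnfrsf18* (GITR), a costimulatory receptor of regulatory and activated T cells, was at 1.30, 6.83 and 2.601 CPM in H2O2/saline, against 1.005, 0.792 and 1.19 CPM in control libraries. H2O2/saline 2 was the highest by far, and no libraries of the groups overlapped. Its log2 fold change was 1.84 ± 0.63 (SE, edgeR adjusted p = 0.158). Without H2O2/saline 1 the adjusted p was 0.0317, and without H2O2/saline 2 the log2 fold change was 0.97, with an adjusted p of 0.580. *Tnfrsf11b* (osteoprotegerin), a soluble decoy for the bone cytokine RANKL and for TRAIL, was the only named member that was lower. It was at 0.462, 0.155 and 0.297 CPM in H2O2/saline, against 0.899, 1.32 and 1.57 CPM in control libraries. These groups did not overlap, and the log2 fold change of -2.05 ± 0.67 (SE) had an edgeR adjusted p of 0.140. The H2O2/saline libraries held only 16, 6 and 12 expected counts of *Tnfrsf11b*. *Tnfrsf11a* (RANK), the signalling receptor for RANKL, averaged 14.1 ± 4.6 CPM in H2O2/saline and 20.2 ± 8.7 CPM in control bladders (SD, n = 3 each).

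**Figure D3:**
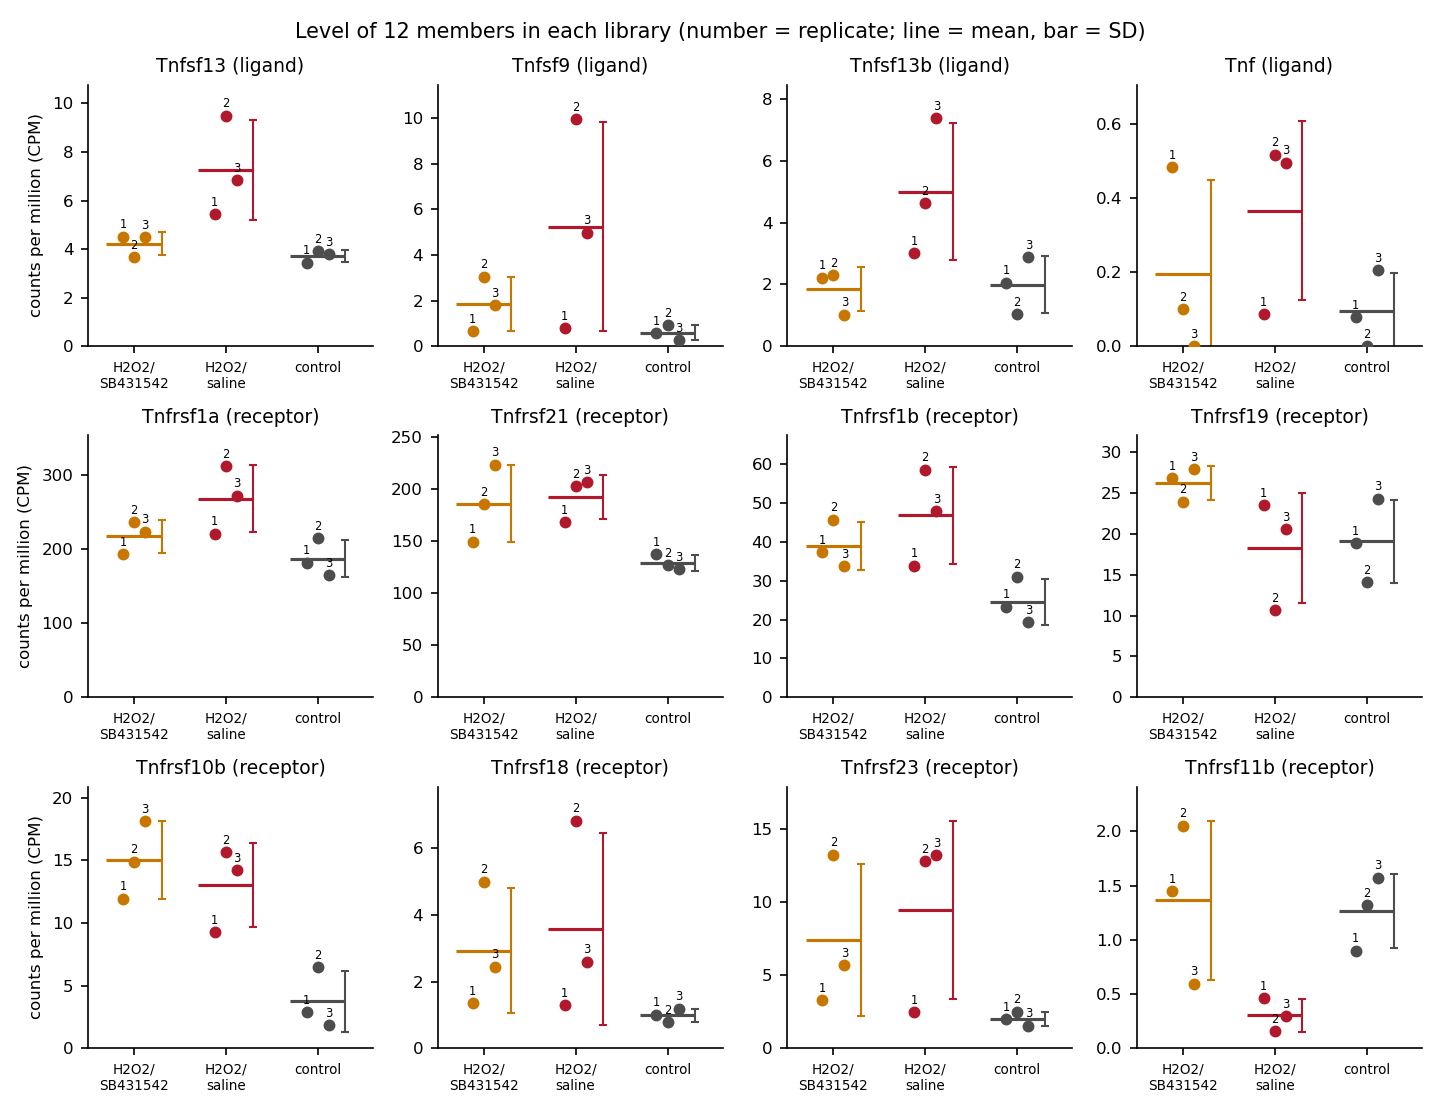
CPM of 12 members in each library, linear axes from 0, with groups from left to right H2O2/SB431542, H2O2/saline and control. Points are libraries numbered by replicate, the line is the mean and the bar the SD (n = 3). Tnfrsf10b was at 9.28 to 15.7 CPM in H2O2/saline and 1.86 to 6.498 CPM in control libraries, while Tnfsf9 and Tnfrsf23 had H2O2/saline 1 within the control range.

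The other receptors overlapped between H2O2/saline and control libraries. *Tnfrsf12a* (Fn14, induced on injured cells) varied widely, at 26.0, 162 and 112 CPM in H2O2/saline and at 35.5, 111 and 23.0 CPM in control libraries, so that spread within groups was as wide as that between them. *Tnfrsf19*, an orphan receptor found in epithelia, was at 23.5, 10.7 and 20.6 CPM in H2O2/saline and at 18.8, 14.1 and 24.3 CPM in control libraries. *Ltbr* averaged 245 ± 19 CPM in H2O2/saline and 219 ± 61 CPM in control bladders (SD, n = 3 each). *Cd40*, the receptor through which T cells activate B cells and macrophages, averaged 5.03 ± 1.52 CPM in H2O2/saline and 3.38 ± 0.95 CPM in control bladders. *Fas*, the death receptor for Fas ligand, averaged 1.89 ± 0.46 CPM in H2O2/saline and 1.57 ± 0.42 CPM in control bladders. Neither receptor was separated from its controls. *Tnfrsf25* (DR3), a death-domain receptor of T cells, averaged 1.18 ± 0.48 CPM in H2O2/saline and 0.7003 ± 0.286 CPM in control bladders. *Tnfrsf4* (OX40), a costimulatory receptor of T cells, averaged 0.827 ± 0.898 CPM in H2O2/saline and 0.763 ± 0.537 CPM in control bladders. *Cd27*, a receptor of lymphocytes, averaged 0.335 ± 0.347 CPM in H2O2/saline and 0.183 ± 0.121 CPM in control bladders. These 3 lymphocyte receptors were all low and overlapped. *Edar*, the ectodysplasin receptor of skin appendages, averaged 0.454 ± 0.617 CPM in H2O2/saline and 1.23 ± 0.36 CPM in control bladders.

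The 12 members under the filter were 9 ligands and 3 receptors. *Fasl*, the ligand of *Fas*, had 0 counts in all 9 libraries. The rest had 16 to 91.5 expected counts over 9 libraries, often most of them in 1 library. *Cd40lg* (CD40 ligand of T cells) had 22 of 25 in H2O2/saline 3, which also held 34 of 38 for *Tnfsf18* (GITR ligand) and 34 of 62.9 for *Tnfrsf13c* (BAFF receptor). H2O2/saline 2 held 12 of 16 for *Cd70* (ligand of CD27), 26 of 47 for *Lta* (lymphotoxin α), 18 of 26 for *Tnfsf4* (OX40 ligand), 32 of 67 for *Tnfrsf8* (CD30) and 30.97 of 91.5 for *Tnfrsf26*. H2O2/SB431542 3 held 20 of 28 for *Tnfsf8* (CD30 ligand). H2O2/SB431542 2 held 12 of 28 for *Tnfsf11* (RANKL) and 16 of 40.2 for *Tnfsf15* (TL1A, ligand of DR3). Such counts, few and often held mostly by 1 library, give no comparison between groups. For many pairs it was therefore the receptor that was measurable and the ligand that was not, as with *Fas*, *Cd40*, *Cd27*, *Tnfrsf4*, *Tnfrsf18*, *Tnfrsf11a* and *Tnfrsf25*.

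The second comparison set H2O2/SB431542 against H2O2/saline bladders. It shares the H2O2/saline libraries with the first, so a library that was high or low there moves both. By edgeR 0 of 30 tested members passed (background 0.0% of all genes), 3 had an unadjusted p under 0.05 (background 8.83%), and DESeq2 called 0 (background 0.14%). With the replicate block 0 members passed (background 0.0%), and without H2O2/saline 1 again 0 (background 1.02%). All 3 H2O2/SB431542 libraries lay below all 3 H2O2/saline libraries for 3 members, the ligands *Tnfsf13*, *Tnfsf13b* and *Tnfsf14* (background 7.37%). They lay above them for 2 receptors, *Tnfrsf11b* and *Tnfrsf19* (background 8.48%). Fold changes were negative for 7 of 8 tested ligands, with *Tnfsf10* the exception, and for 10 of 22 tested receptors. Their medians on the log2 scale were -0.84 and 0.15. Over all tested genes the median was 0.02 and 51.7% were positive.

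*Tnfsf13* was at 4.52, 3.68 and 4.50 CPM in H2O2/SB431542 libraries, against the 5.43 to 9.496 CPM of H2O2/saline libraries. The log2 fold change was -0.78 ± 0.29 (SE, 95% interval -1.41 to -0.15, edgeR adjusted p = 0.528). *Tnfsf13b* was at 2.22, 2.30 and 1.03 CPM, against 3.01 to 7.38 CPM in H2O2/saline libraries, with a log2 fold change of -1.44 (95% interval -2.52 to -0.35, edgeR adjusted p = 0.528). In both genes the H2O2/SB431542 libraries overlapped with controls. *Tnfsf14* was at 0.242, 0.350 and 0.274 CPM in H2O2/SB431542, against 0.517 to 1.39 CPM in H2O2/saline libraries, or 10 to 14 counts a library in H2O2/SB431542. *Tnfsf9* was at 0.676, 3.05 and 1.81 CPM in H2O2/SB431542 and at 0.780 to 9.94 CPM in H2O2/saline libraries. It overlapped, and its log2 fold change was -1.50 (95% interval -3.21 to 0.20, edgeR adjusted p = 0.600).

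*Tnfrsf11b* was at 1.45, 2.05 and 0.595 CPM in H2O2/SB431542, against 0.155 to 0.462 CPM in H2O2/saline libraries. This receptor had the lowest p among tested members, with a log2 fold change of 2.15 ± 0.67 (SE, 95% interval 0.70 to 3.61, edgeR adjusted p = 0.528). It rests on the same few H2O2/saline counts, 6 to 16 a library, as the fold change against control. *Tnfrsf19* was at 26.8, 24.0 and 27.9 CPM in H2O2/SB431542 and at 10.7 to 23.5 CPM in H2O2/saline libraries. The gap between the nearest libraries of the groups was small, and the log2 fold change was 0.52 (95% interval -0.11 to 1.15, edgeR adjusted p = 0.625). *Tnfrsf1a* was at 193, 237 and 224 CPM in H2O2/SB431542 and at 221 to 312 CPM in H2O2/saline libraries, with a log2 fold change of -0.30 (95% interval -0.71 to 0.11, edgeR adjusted p = 0.671). *Tnf* was at 0.483, 0.10 and 0 CPM in H2O2/SB431542 libraries and overlapped the H2O2/saline libraries. For the receptors with the lowest p after H2O2, intervals for the inhibitor were wide. They ran from -0.66 to 1.06 for *Tnfrsf10b*, from -1.64 to 0.93 for *Tnfrsf23* and from -0.80 to 0.27 for *Tnfrsf1b* on the log2 scale, so a change of either sign could be present.

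The third comparison set H2O2/SB431542 against control bladders. It uses the same controls as the first. By edgeR 0 of 30 tested members passed (background 0.0155%), 5 had an unadjusted p under 0.05 (background 7.61%), and DESeq2 called 1, *Tnfrsf10b* (background 0.947%). Without H2O2/saline 1, which enters only the shared spread here, *Tnfrsf10b* passed as well (background 0.43%). All 3 H2O2/SB431542 libraries lay above all 3 controls for 5 receptors (background 7.98%), and below them for 0 members (background 6.49%). The 5 were those with an unadjusted p under 0.05.

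*Tnfrsf10b* was at 11.9, 14.9 and 18.2 CPM in H2O2/SB431542 libraries, against 1.86 to 6.498 CPM in controls. No library came near the highest control. The log2 fold change was 2.0 ± 0.41 (SE), with an edgeR adjusted p of 0.290 and a DESeq2 adjusted p of 0.000689. *Tnfrsf23* was at 3.31, 13.2 and 5.67 CPM in H2O2/SB431542 and at 1.55 to 2.51 CPM in control libraries (log2 fold change 1.88 ± 0.62, SE, edgeR adjusted p = 0.437). *Tnfrsf18* was at 1.35, 5.001 and 2.45 CPM, against 0.792 to 1.19 CPM in control libraries, with a log2 fold change of 1.56 ± 0.63 (SE, edgeR adjusted p = 0.585). In both, replicate 1 was close to the controls. *Tnfrsf1b* was at 37.4, 45.7 and 33.7 CPM in H2O2/SB431542 and at 19.3 to 31.04 CPM in control libraries (log2 fold change 0.66 ± 0.25, SE, edgeR adjusted p = 0.525). *Tnfrsf21* was at 149, 185 and 224 CPM, against 123 to 138 CPM in control libraries (log2 fold change 0.53 ± 0.19, SE, edgeR adjusted p = 0.489). *Tnfsf9*, at 0.676 to 3.05 CPM in H2O2/SB431542, overlapped the controls, with a log2 fold change of 1.62 ± 0.81 (SE, edgeR adjusted p = 0.690). *Tnf* overlapped as well (edgeR adjusted p = 0.979), and its fitted direction was set by H2O2/SB431542 1 alone, with a log2 fold change of -0.91 when that library was left out.

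Genes that act with the family were taken from 6 lists of 63 genes, of which 58 were tested. In H2O2/saline against control, edgeR called 0 of 58. DESeq2 called 9, or 15.5% (background 7.33%), and 19 had an unadjusted p under 0.05, or 32.8% (background 17.8%), 17 of them higher. With the replicate block 7 passed, or 12.1% (background 4.79%), 6 of them higher, and without H2O2/saline 1 there were 11, or 19.0% (background 9.43%). Among the 14 death and survival adaptors, those that passed with the block were *Ripk3* and *Mlkl*, the kinase and the pore-forming protein of necroptosis. Without H2O2/saline 1 the adaptor *Traf5* passed as well. *Ripk3* was at 5.0, 36.3 and 27.6 CPM in H2O2/saline, against 2.46, 4.33 and 2.47 CPM in control libraries (log2 fold change 2.89 ± 0.64, SE, edgeR adjusted p = 0.0616, with the block 0.0139). *Mlkl* was at 3.58, 11.98 and 14.1 CPM, against 2.70, 1.93 and 1.65 CPM in control libraries (log2 fold change 2.24 ± 0.48, SE, edgeR adjusted p = 0.0600, with the block 0.0344). Both were above all controls in every H2O2/saline library. *Traf1*, an NF-κB-induced adaptor, had a log2 fold change of 1.48 (edgeR adjusted p = 0.173).

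Of the 12 kinases and NF-κB subunits none passed with the block either, and the lowest p were those of *Nfkb1*, *Relb* and *Nfkb2*, with log2 fold changes of 0.66, 0.39 and 0.42. Of 10 brakes of TNF signalling, *Bcl3*, an atypical inhibitor-of-NF-κB protein, was at 24.8, 56.8 and 43.8 CPM in H2O2/saline, against 11.9, 17.4 and 8.58 CPM in control libraries. It had a log2 fold change of 1.73 ± 0.32 (SE, edgeR adjusted p = 0.0600, with the block 0.0147). The deubiquitinases *Cyld* and *Otulin* had log2 fold changes of -0.95 and 0.41 (edgeR adjusted p = 0.169 and 0.284). Of 16 NF-κB target genes 11 were tested. *Il1b*, the cytokine interleukin-1β, was at 0.0578, 1.60 and 2.33 CPM in H2O2/saline libraries and had 0 counts in all 3 controls. Its mean was at least 16.9-fold higher, set against a floor of 3 counts per control library (edgeR adjusted p = 0.0930, with the block 0.0261). *Sele*, the endothelial adhesion molecule E-selectin, was lower, at 5.81, 2.67 and 5.18 CPM in H2O2/saline, against 9.63, 9.43 and 19.2 CPM in control libraries (log2 fold change -1.49 ± 0.38, SE, edgeR adjusted p = 0.0826, with the block 0.0383). *Bcl2a1d*, a survival gene, had a log2 fold change of 2.38 (edgeR adjusted p = 0.128). Its list thus held genes of both directions.

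Among 5 genes that process ligands and receptors, the lowest p were those of the protease *Furin*, of *Rhbdf2* and of the TNF-shedding protease *Adam17*, with log2 fold changes of 0.72, 0.53 and -0.19, the last of which was 0.11 without control 3. Of 6 related receptors and ligands, *Ngfr*, the low-affinity neurotrophin receptor, was at 5.61, 11.6 and 12.7 CPM in H2O2/saline, against 2.41, 1.80 and 1.75 CPM in control libraries (log2 fold change 2.33 ± 0.36, SE, edgeR adjusted p = 0.0503, with the block 0.0135). *Eda2r*, a receptor for ectodysplasin, was at 1.16, 1.14 and 2.23 CPM, against 0.0529, 0.317 and 0.155 CPM in control libraries (log2 fold change 3.09 ± 0.67, SE, edgeR adjusted p = 0.0616, with the block 0.0214). Every H2O2/saline library exceeded every control in both. *Relt* had a log2 fold change of 2.06 (edgeR adjusted p = 0.129). Without H2O2/saline 1, edgeR adjusted p was 0.000758 for *Ripk3*, 0.00104 for *Mlkl*, 0.00115 for *Bcl3*, 0.000594 for *Ngfr* and 0.0142 for *Eda2r*. It was 0.013 for *Il1b*, 0.0206 for *Sele* and for *Nfkb1*, 0.0333 for *Cyld* and 0.047 for *Relt*, and *Traf5* also passed. Without control 3, edgeR adjusted p was 0.251 for *Ngfr*, *Mlkl*, *Bcl3* and *Eda2r* and 0.259 for *Ripk3*. It was 0.282 for *Il1b*, 0.308 for *Sele*, 0.324 for *Relt*, 0.448 for *Cyld* and 0.4605 for *Nfkb1*. In H2O2/SB431542 against H2O2/saline, edgeR called 0 of the 58, DESeq2 called 0, and 5, or 8.62%, had an unadjusted p under 0.05, near the background of 8.83%. These were *Cyld* and *Sele*, higher by 0.82 and 1.06 on the log2 scale, and *Traf5*, *Nfkbib* and *Bex3* (formerly *Ngfrap1*), with log2 fold changes of -0.65, -0.45 and -0.46. In H2O2/SB431542 against control, edgeR again called 0 of the 58 and 9 had an unadjusted p under 0.05, all higher, or 15.5% (background 7.61%). DESeq2 called 4, *Cxcl10*, *Eda2r*, *Ngfr* and *Ripk3*, or 6.9% (background 0.947%). *Eda2r* was at 1.59, 3.98 and 3.54 CPM in H2O2/SB431542, against 0.0529, 0.317 and 0.155 CPM in control libraries (log2 fold change 4.10 ± 0.69, SE, edgeR adjusted p = 0.156). *Ngfr* was at 4.81, 7.20 and 6.996 CPM, against 2.41, 1.80 and 1.75 CPM in control libraries (log2 fold change 1.67 ± 0.35, SE, edgeR adjusted p = 0.290). All H2O2/SB431542 libraries exceeded all controls in both, and both passed without H2O2/saline 1, with adjusted p of 0.0299 and 0.0306. These 2 genes were chosen for this comparison after their values were seen.

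Markers of cell types that carry these genes were not level between groups. The 8 macrophage and monocyte markers summed to 353 to 624 CPM in H2O2/SB431542, 480 to 824 CPM in H2O2/saline and 271 to 343 CPM in control libraries. Of them 7 had a higher mean in H2O2/saline than in control, 5 with all H2O2/saline libraries above all controls (background 9.7% of tested genes), and none was at 0. The 6 neutrophil markers summed to 2.37 to 7.68 CPM in H2O2/SB431542, 3.58 to 16.5 CPM in H2O2/saline and 1.80 to 2.91 CPM in control libraries, with *Mpo*, *S100a8*, *S100a9* and *Ly6g* at 0 in some library. The 5 mast cell markers summed to 13.0 to 23.1 CPM in H2O2/SB431542, 12.4 to 46.5 CPM in H2O2/saline and 7.56 to 20.5 CPM in control libraries, with *Cpa3* and *Ms4a2* at 0 in some library. The 5 basal urothelium markers summed to 6953 to 8141 CPM in H2O2/SB431542, 7411 to 11520 CPM in H2O2/saline and 2206 to 4084 CPM in control libraries. Of them 4 had a higher mean in H2O2/saline than in control, 3 with all H2O2/saline libraries above all controls. *Trp63* went the other way, at 36.1, 32.1 and 37.0 CPM in H2O2/saline and 41.4, 44.2 and 70.2 CPM in control libraries. Both mast cell and neutrophil markers were few in counts beside those of macrophages and urothelium. The 8 T cell markers summed to 3.63 to 5.45 CPM in H2O2/SB431542, 5.28 to 7.52 CPM in H2O2/saline and 2.62 to 4.76 CPM in control libraries, so that all H2O2/saline sums exceeded all control sums. All 8 had a higher mean in H2O2/saline than in control and a lower one in H2O2/SB431542 than in H2O2/saline, with 1 above all controls in every H2O2/saline library and *Cd5* and *Cd8a* at 0 in some library. The 5 superficial urothelium markers summed to 9621 to 11420 CPM in H2O2/SB431542, 6707 to 15220 CPM in H2O2/saline and 13200 to 20140 CPM in control libraries. Of them 2 had a higher mean in H2O2/saline than in control, and 1 had all H2O2/saline libraries below all controls (background 8.96%). H2O2/saline 1 was the lowest of its group in the macrophage, neutrophil, mast cell and basal urothelium sums, as it was in all 9 named members that were higher after H2O2. The same held for the sums of dendritic cell, smooth muscle, endothelium, adipocyte and lymphoid tissue markers. H2O2/saline 1 was the highest of its group in the T cell, B cell, NK cell, superficial urothelium and fibroblast sums. In that of superficial urothelium it was at 15220 CPM, against 6707 and 7032 CPM in H2O2/saline 2 and 3. The part of these cells in the members' values was not tested. In whole bladder, fewer cells of a type and less RNA per cell cannot be told apart.

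**Figure D4:**
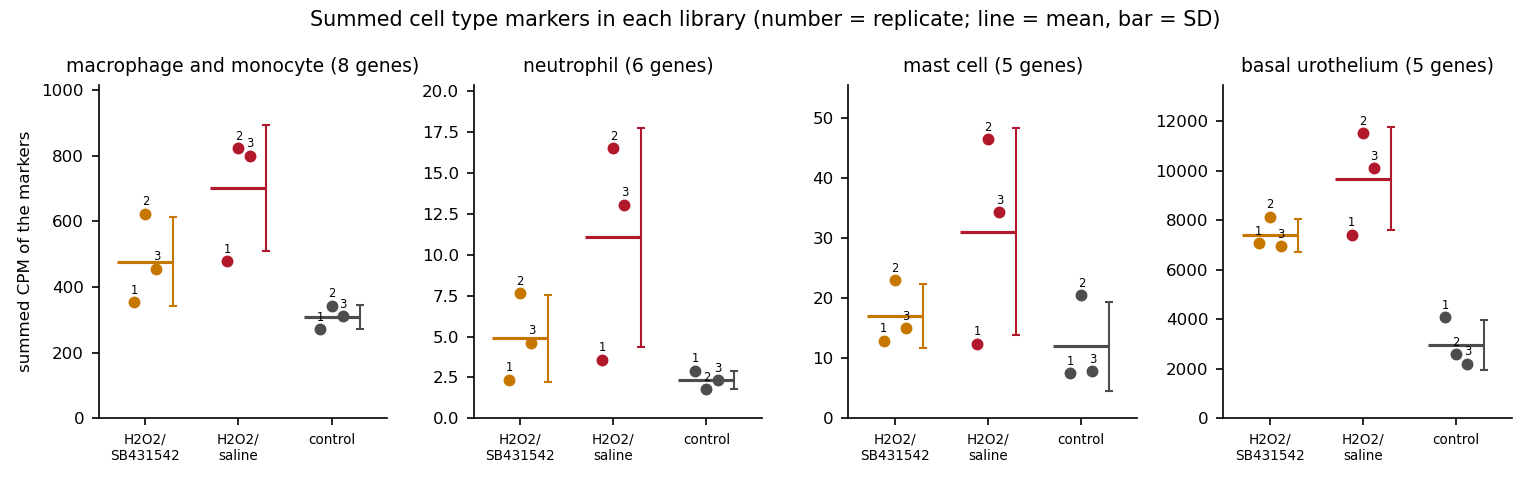
Summed CPM of the markers of 4 cell types in each library, linear axes from 0, with groups from left to right H2O2/SB431542, H2O2/saline and control. Points are libraries numbered by replicate, the line is the mean and the bar the SD (n = 3). Macrophage markers were at 480 to 824 CPM in H2O2/saline and 271 to 343 CPM in control libraries, with H2O2/saline 1 the lowest of its group in every panel.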

How the data were processed

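RNA came from one hemisphere per bladder, poly-A RNA was purified, and libraries were sequenced as paired reads of 150 bp. The authors analysed the reads with strand NGS against GRCm39. Among items not given in the sources used were the aligner, the counting rule, strand use, annotation and software version. The deposited raw columns hold expected counts per gene (32.0% of nonzero values are exactly whole), which were rounded to whole numbers. The deposited normalized columns hold log2 values made by the authors from the same counts and were not used. Counts were tested with edgeR 4.0.16 (quasi-likelihood, trimmed mean factors of 0.91 to 1.07, one fit over all 3 groups, filterByExpr with 10 counts) and R 4.3.3, with p-values adjusted over 19314 genes by Benjamini-Hochberg at a threshold of 0.05. Standard errors are those implied by the F statistic. DESeq2 1.42.0, other scaling, no filter, a robust spread, 2 groups only, leaving out each library and the replicate block were tried as alternatives, and the scripts were tested on simulated data. No library pair held identical values.

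Groups share replicate numbers, and the labels do not say what a number marks. Same-numbered libraries deviated together in H2O2/saline and control (r = 0.312, 0.119 and 0.112) and in H2O2/SB431542 and H2O2/saline (r = 0.514, 0.201 and 0.129), but not throughout in H2O2/SB431542 and control (r = 0.321, 0.0399 and 0.077). Some different-numbered pairs reached similar values, up to 0.0801 in the first of these (H2O2/saline 3 with control 2) and 0.183 in the second (H2O2/SB431542 2 with H2O2/saline 3). In each comparison the replicate 1 pair had the highest r. The log2 counts of the replicate 1 libraries also correlated at 0.9803 to 0.9815, against at most 0.9755 for any other pair. What these libraries share was not tested. Leaving out H2O2/saline 1 kept control 1 and H2O2/SB431542 1 in the fit, and no setting left out all replicate 1 libraries. Because same-numbered libraries deviated together, blocked values stand beside the first comparison where they change a call.

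Exon lengths come from GENCODE M21 (GRCm38), matched by gene identifier, and promoter windows from RefSeq (GRCm38.p6). Named with full values are the 10 members of lowest p in the first comparison, the 6 in each other comparison and *Tnf*, and the 3 genes of lowest p in each pathway list. Members, pathway lists and markers were chosen with earlier results of these data known.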

Additional observations from a re-analysis of the deposited data

How the results depend on the processing

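Of 50 log2 fold changes recomputed under 15 alternatives, 2 changed sign, both far from the threshold: that of *Adam17* in H2O2/saline against control was 0.11 without control 3 (-0.36 to 0.11 on leaving out 1 library), and that of *Tnf* in H2O2/SB431542 against control was -0.91 without H2O2/SB431542 1 (-0.91 to 2.20). In H2O2/saline against control, the 0 members called became 8 with DESeq2 and 7 with no filter on low counts. The 7 included *Tnfrsf12a*, whose libraries overlapped between groups, and *Tnfrsf8*, which was under the filter. Neither was among the 8 of DESeq2. The 0 became 4 with the replicate block and 0 to 6 on leaving out 1 library, the 6 without H2O2/saline 1. The 0 pathway genes became 9 with DESeq2, 13 with no filter, 1 with DESeq2 size factors in edgeR, 1 with a robust spread, 7 with the replicate block and 0 to 11 on leaving out 1 library, the 11 without H2O2/saline 1 and 2 without control 1. In H2O2/SB431542 against control, the 0 members became 1 with DESeq2, 2 with no filter, 1 with the replicate block and 0 to 1 on leaving out 1 library. Its 0 pathway genes, a count added after seeing the data, became 4 with DESeq2, 7 with no filter, 1 with only the 2 groups, 1 with the replicate block and 0 to 2 on leaving out 1 library, the 2 without H2O2/saline 1. The block changed no call in H2O2/SB431542 against H2O2/saline, where 0 members and 0 pathway genes passed under every alternative. Settings tested 19314 genes, or 33427 with no filter. Over all these genes, calls in H2O2/saline against control were 10 as reported, 1415 with DESeq2 and 1579 with no filter. They were 12 with DESeq2 size factors in edgeR, 13 with a robust spread, 925 with the block and 4 with only the 2 groups. On leaving out 1 library they were 0 to 1822, with 252 without control 1. In H2O2/SB431542 against H2O2/saline calls over all genes were 0 as reported, 27 with DESeq2, 274 with no filter and 0 to 197 on leaving out 1 library. In H2O2/SB431542 against control they were 3 as reported, 183, 439 and 0 to 83, the highest again without H2O2/saline 1. They were 23 there with only the 2 groups and 35 with the block, although there same-numbered libraries did not each correlate best with each other. The causes were not tested. Members with under 1 CPM in a group, such as *Tnf* and, in H2O2/saline, *Tnfrsf11b*, rest on few counts and limit what 3 libraries a group can show.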
